A study of Mus musculus with 13 samples.

Results

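Collagen genes were taken as every gene whose symbol on the array reads Col, a number, a and a number. They numbered 37 of the 16593 genes with a symbol on the platform and were read by 59 of its 25697 probes. The left ventricle (LV) was profiled on 13 Illumina BeadChip arrays of male C57BL/6 mice aged 4 months, 5 weeks after surgery. Of these, 3 were labelled LXRα-Tg TAC, 3 LXRα-Tg sham, 4 Wt TAC and 3 Wt sham. LXRα-Tg mice carry murine LXRα (gene Nr1h3) under the αMHC promoter, which is active in cardiomyocytes, and the Wt mice were their littermates. The line was made in FVB oocytes and backcrossed to C57BL/6. TAC is transverse aortic constriction, a surgical narrowing of the aorta that loads the LV with pressure, and sham mice had the operation without it. No source used here says how many founder lines the arrays cover or that each array was a separate mouse, so the p-values below reflect variation among arrays, which may be technical.

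Collagens are secreted proteins of the extracellular matrix, made of chains wound into a helix. Fibrillar collagens form the tensile fibres of the myocardial interstitium, basement membrane collagens form the sheets around cardiomyocytes and vessels, and FACIT collagens (fibril-associated collagens with interrupted triple helices) sit on fibrils. In the heart, fibroblasts are known as the main source of fibrillar collagens, whereas endothelial and mural cells add basement membrane chains. In LV tissue, fewer cells of a type and less RNA per cell cannot be told apart.

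The promoters of the collagens that the results turn on are shown first. Each window runs from 250 bases before to 50 after 1 annotated start of the gene, in RefSeq with build GRCm38.p6. That start need not be the outermost start of the gene. Windows are written 5′ to 3′ on the strand of the gene. Capitals mark the GC box GGGCGG and the CCAAT box CCAAT on either strand. Col4a1 and Col4a2 are shown because their chains share 1 molecule and their genes lie head to head, so that the windows (chr8:11312777-11313076, minus strand, and chr8:11312555-11312854, plus strand) have 78 bases in common.
Col4a1: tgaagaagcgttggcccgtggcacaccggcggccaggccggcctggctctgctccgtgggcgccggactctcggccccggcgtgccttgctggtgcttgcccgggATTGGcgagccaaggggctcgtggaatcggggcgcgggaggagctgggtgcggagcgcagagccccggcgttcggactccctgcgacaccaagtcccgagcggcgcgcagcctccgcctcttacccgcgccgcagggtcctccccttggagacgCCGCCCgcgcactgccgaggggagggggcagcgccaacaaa
Col4a2: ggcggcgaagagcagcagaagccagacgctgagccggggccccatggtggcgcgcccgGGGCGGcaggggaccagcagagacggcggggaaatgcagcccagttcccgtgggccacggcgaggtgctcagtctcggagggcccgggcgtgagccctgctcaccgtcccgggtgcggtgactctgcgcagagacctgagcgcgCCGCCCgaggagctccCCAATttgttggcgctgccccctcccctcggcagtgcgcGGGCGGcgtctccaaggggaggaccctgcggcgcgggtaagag
Col16a1 (chr4:130047590-130047889, plus strand), Col15a1 (chr4:47207762-47208061, plus strand), Col9a2 (chr4:121039316-121039615, plus strand) and Col6a2 (chr10:76623355-76623654, minus strand) are shown because they were called between the sham groups. The table holds 2 windows for Col6a2, and the first is given. Adjoining GC boxes in it overlap.
Col16a1: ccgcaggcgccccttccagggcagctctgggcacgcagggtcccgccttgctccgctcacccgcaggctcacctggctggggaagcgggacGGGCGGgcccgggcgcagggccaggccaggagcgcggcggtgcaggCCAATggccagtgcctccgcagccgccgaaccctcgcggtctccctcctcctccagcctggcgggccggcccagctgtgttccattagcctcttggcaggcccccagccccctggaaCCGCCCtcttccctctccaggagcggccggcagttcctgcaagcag
Col15a1: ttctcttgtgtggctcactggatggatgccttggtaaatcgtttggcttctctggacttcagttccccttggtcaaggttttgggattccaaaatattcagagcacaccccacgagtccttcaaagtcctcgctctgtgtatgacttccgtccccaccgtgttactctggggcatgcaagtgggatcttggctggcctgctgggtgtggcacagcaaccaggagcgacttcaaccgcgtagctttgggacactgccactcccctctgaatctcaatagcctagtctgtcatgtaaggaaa
Col9a2: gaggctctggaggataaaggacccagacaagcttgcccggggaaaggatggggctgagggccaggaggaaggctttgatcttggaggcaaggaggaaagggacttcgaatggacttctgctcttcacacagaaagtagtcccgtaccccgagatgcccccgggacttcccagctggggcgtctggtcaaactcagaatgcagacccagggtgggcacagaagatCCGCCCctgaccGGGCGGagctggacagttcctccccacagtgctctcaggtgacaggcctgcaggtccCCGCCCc
Col6a2: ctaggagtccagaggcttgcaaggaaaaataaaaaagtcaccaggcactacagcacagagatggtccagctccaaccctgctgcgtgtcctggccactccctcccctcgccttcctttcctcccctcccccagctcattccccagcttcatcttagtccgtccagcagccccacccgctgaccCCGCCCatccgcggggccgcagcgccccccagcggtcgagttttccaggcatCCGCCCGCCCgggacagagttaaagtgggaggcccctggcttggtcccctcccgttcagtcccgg
Windows were found for 30 of the 37 genes. The GC box was in 10 of the 14 tested collagens with a window, in 19 of the 30 collagens and in 35.7% of all 32851 windows. The CCAAT box was in 7 of the 14, in 12 of the 30 and in 37.4% of all windows. A gene counted if any of its windows held the box, whereas the share of all windows is over single windows. Col4a1 and Col4a2 have a GC box in common, within the bases that their windows share. The window of Col15a1 held neither, but it lies inside the span listed for the gene (chr4:47207655-47313167), so the bases before the outermost start were not read. The consensus of an LXR response element, 2 copies of AGGTCA in the same direction with any 4 bases between them and on either strand, was in 0 of the 30 collagen genes with a window and in 0.0152% of all windows.

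Before the collagens, the arrays were checked against their labels with Nr1h3. Replicate numbers are not part of the labels and count the arrays of each group in the order of the series. Its signal was high on LXRα-Tg TAC replicates 1 and 2 (31975.4 and 27541.5), LXRα-Tg sham replicate 3 (25186.7), Wt TAC replicate 2 (31926.6) and Wt sham replicate 3 (27568.2). It was low, at 163.2 to 396.7, on LXRα-Tg TAC replicate 3 (290.4), LXRα-Tg sham replicates 1 and 2 (163.2 and 396.7), Wt TAC replicates 1, 3 and 4 (269.6, 340.8 and 289.7) and Wt sham replicates 1 and 2 (166.2 and 310.2). On 5 arrays the level thus went against the label: 1 LXRα-Tg TAC, 2 LXRα-Tg sham, 1 Wt TAC and 1 Wt sham. The groups below are those of the labels, and every direction given is a direction between labels. The male-specific Eif2s3y was not detected on LXRα-Tg TAC replicate 3 and Wt sham replicate 1. Wt sham replicate 3 had the most liver and kidney probes detected (13). LXRα-Tg TAC replicate 1 and Wt TAC replicate 4 had 11 each, and the other arrays had 3 to 7. The probes detected numbered 9454 to 10392 per array, and 9 of 9 cardiomyocyte markers passed the detection filter. Arrays lay on 2 slides, and each slide held arrays of all 4 groups.

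Of the 37 collagen genes, 17 had a probe detected (detection p under 0.01, as given by the scanner's software) on at least 3 of the 13 arrays and were tested, and 10 of these were detected on all 13. The 10 were the fibrillar Col1a1 and Col5a1, the basement membrane chains Col4a1, Col4a2, Col4a5, Col15a1 and Col18a1, the FACIT chain Col16a1, and Col6a1 and Col6a2 of the beaded microfibrils. By class, 4 of 11 fibrillar, 7 of 8 basement membrane, 3 of 6 FACIT and 3 of 12 other collagens were tested. Col3a1 was detected on 10 arrays, Col4a4 on 9, Col1a2 and Col14a1 on 5 each, Col9a2 and Col4a3 on 4 each and Col25a1 on 3.

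A further 5 genes were detected on 1 or 2 arrays (Col11a2, Col5a3, Col2a1, Col9a1 and Col8a2). The other 15 were detected on 0 arrays, among them Col5a2, the partner of Col5a1, the hypertrophic cartilage collagen Col10a1, the hemidesmosome collagen Col17a1 and the anchoring fibril collagen Col7a1. Their highest signals bound only what these probes could see. For Col12a1, Col6a3 and Col8a1 the platform table used here held no probe under that symbol, so they were not analysed here. Per array, 12 to 20 collagen probes were detected, with 14 to 16 on arrays labelled LXRα-Tg TAC, 16 to 20 on LXRα-Tg sham, 13 to 17 on Wt TAC and 12 to 16 on Wt sham.

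**Figure D1:**
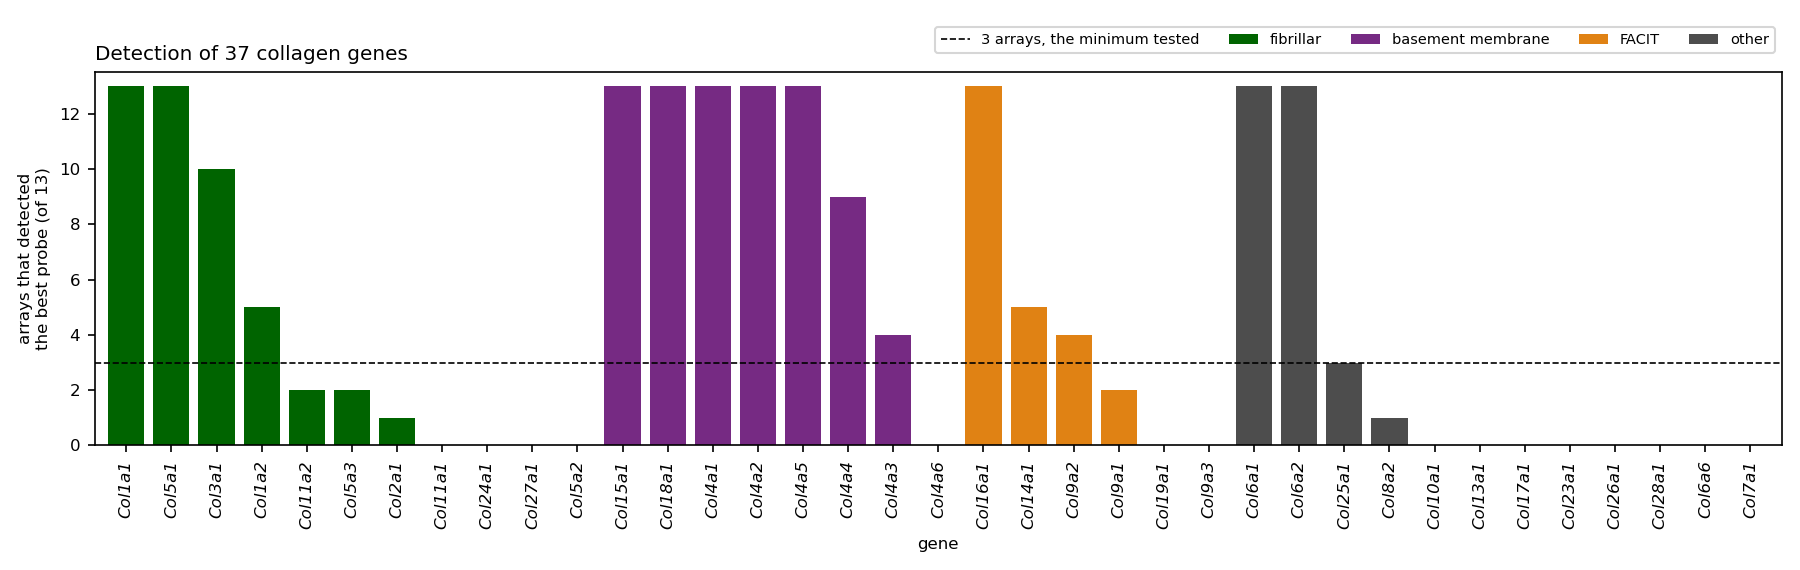
Number of arrays (of 13, vertical axis) on which the most often detected probe of each of 37 collagen genes (horizontal axis) was detected, coloured by class. The dashed line marks 3 arrays. Basement membrane collagens were detected most widely, with 7 of 8 at or above the line.

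The first comparison set arrays labelled LXRα-Tg sham against arrays labelled Wt sham. It is not one of transgene levels, since Nr1h3 was low on LXRα-Tg sham replicates 1 and 2 and high on Wt sham replicate 3. Values are normalized signals on the log2 scale and differences are on the same scale. Those called higher on the arrays labelled LXRα-Tg sham were FACIT, basement membrane and microfibrillar collagens, and 0 fibrillar collagens passed the test. This is no contrast between classes, since Col1a1 and Col5a1, the fibrillar genes detected on all 13 arrays, differed by 1.33 and 0.71. The median difference was 0.73 for basement membrane and 0.88 for fibrillar collagens. The fibrillar median is set by Col1a2 and Col3a1, whose differences depended on 1 array, as given below. Of the 10 genes detected on all 13 arrays, 3 passed the test (limma, adjusted p under 0.05 over 7837 genes) and were higher, namely Col16a1, Col15a1 and Col6a2, against 1.30% of all genes called higher. None of the 10 was called lower, against 0.281% of all genes. On 9 of the 10, every LXRα-Tg sham array was above every Wt sham array, against 11.0% of all genes, and the exception was Col18a1. In 0 of the 10 was every LXRα-Tg sham array below, against 9.40% of all genes. The median difference of the 10 was 0.78, against -0.01 over all genes tested, with a range of 0.30 to 1.39. All 10 had a difference above 0, against 48.8% of all genes. Unadjusted p-values under 0.05 were seen for 8 of the 10, each of them higher, against 9.34% of all genes higher and 6.74% lower. Of the 7 dimmer genes tested, Col9a2 was called as well, which makes 4 of 17, but it entered the test through the LXRα-Tg arrays and its call is given as a description.

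Col16a1, a fibril-associated chain that links fibrils to neighbouring matrix, had the largest difference among the collagens. It was at 8.08, 8.06 and 7.87 on the LXRα-Tg sham arrays, against 6.36, 7.05 and 6.42 on the Wt sham arrays. It was at 7.26, 7.12 and 7.31 on LXRα-Tg TAC arrays and at 6.81, 7.36, 6.84 and 7.69 on Wt TAC arrays. The sham groups lay apart, with 0.82 between the nearest arrays, and the means of the TAC groups lay between theirs. The TAC groups overlapped each other, and Wt TAC replicates 1 and 3 lay within the range of Wt sham. The difference between the sham groups was 1.39 (SE 0.24, a fold of 2.63, limma adjusted p = 0.0207).

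Col15a1, a collagen of the basement membrane zone of muscle and vessels, was at 8.84, 9.39 and 9.15 on LXRα-Tg sham arrays, against 8.29, 8.11 and 7.90 on Wt sham arrays. On TAC arrays it was at 8.50, 8.91 and 8.61 in LXRα-Tg and at 8.19, 8.74, 8.36 and 8.65 in Wt. Again the sham groups did not overlap while the TAC groups did. The sham groups differed by 1.02 (SE 0.19, a fold of 2.03, limma adjusted p = 0.0256).

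Col6a2, a chain of the type VI microfibrils found close to basement membranes, was at 8.46, 8.95 and 8.71 on LXRα-Tg sham arrays, against 7.70, 7.74 and 7.47 on Wt sham arrays. On TAC arrays it was at 7.90, 8.50 and 8.33 in LXRα-Tg and at 7.47, 7.97, 7.80 and 8.46 in Wt. The sham difference was 1.07 (SE 0.23, a fold of 2.10, limma adjusted p = 0.0408). Its partner Col6a1 was at 10.29, 10.91 and 10.86 on LXRα-Tg sham arrays and at 9.84, 9.89 and 9.81 on Wt sham arrays. The 3 Wt sham arrays lay within 0.07 of each other, and every LXRα-Tg sham array was above them, but the difference of 0.84 (SE 0.20) missed the threshold (limma adjusted p = 0.0535). Its other detected probe had a difference of 0.83 and an adjusted p of 0.0365 when each probe was tested by itself. On TAC arrays Col6a1 was at 10.14, 10.50 and 10.35 in LXRα-Tg and at 9.76, 10.13, 10.16 and 10.46 in Wt.

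Col9a2, a chain of the cartilage FACIT collagen IX, was dim and passed the detection filter through the LXRα-Tg arrays. It was at 5.33, 5.69 and 5.58 on LXRα-Tg sham arrays, where all 3 detected it, and at 4.46, 4.72 and 4.69 on Wt sham arrays, where 0 did. Among TAC arrays it was detected on LXRα-Tg replicate 3 alone (5.30), with 4.89 and 4.69 on the other LXRα-Tg arrays and 4.49, 4.63, 4.53 and 4.64 on Wt arrays. Since Wt sham was not well above background, the sham difference was at least 1.27-fold. Its limma adjusted p was 0.0207, in a test that the gene entered because LXRα-Tg arrays detected it, so the p is no support for a difference. That bound sets the mean of the LXRα-Tg sham arrays against, on each Wt sham array, the higher of the probe's own value and the lowest signal of any detected probe. Col4a4, a chain of specialised basement membranes, was also detected on 3 of 3 LXRα-Tg sham arrays (5.71, 5.37 and 5.94) and 0 of 3 Wt sham arrays (4.69, 5.08 and 4.61), at least 1.40-fold higher, with a limma adjusted p of 0.0506.

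Among the fibrillar collagens, 0 of 4 passed the test in this comparison, with a median difference of 0.88. That median lies between Col1a2 and Col3a1, whose differences depended on LXRα-Tg sham replicate 1, as given below. Col1a1, the main chain of type I collagen, was at 8.86, 9.41 and 8.96 on LXRα-Tg sham arrays, against 7.61, 8.02 and 7.60 on Wt sham arrays. On TAC arrays it was at 7.88, 9.17 and 8.30 in LXRα-Tg and at 7.69, 8.43, 8.39 and 8.78 in Wt. The sham groups lay apart by 0.84 at the nearest arrays, and the LXRα-Tg TAC arrays spread more widely than any sham group. The sham difference was 1.33 (SE 0.32, a fold of 2.51, limma adjusted p = 0.0588), close to that of Col16a1 but with a larger error. Col5a1, whose chain helps to start fibrils, was at 9.04, 9.74 and 9.50 on LXRα-Tg sham arrays, against 8.57, 8.70 and 8.88 on Wt sham arrays, a difference of 0.71 (SE 0.19, limma adjusted p = 0.0907). On TAC arrays Col5a1 was at 8.84, 9.22 and 9.04 in LXRα-Tg and at 8.80, 9.33, 8.94 and 9.11 in Wt, which overlap.

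Col1a2 and Col3a1 were both highest on an array on which Col1a1 was not. Col1a2, the other chain of type I collagen, was at 7.23, 4.77 and 5.37 on LXRα-Tg sham arrays, where replicates 1 and 3 detected it, against 5.07, 5.08 and 4.78 on Wt sham arrays, where 0 did. On TAC arrays it was at 5.63, 4.54 and 5.24 in LXRα-Tg and at 4.97, 5.18, 4.84 and 5.37 in Wt. LXRα-Tg sham replicate 1 stood far above all other arrays, while Col1a1 was lowest on that array among the LXRα-Tg sham arrays. Since only 2 of 3 LXRα-Tg sham arrays detected Col1a2, no least fold is given. Its fitted sham difference was 0.81 (SE 0.47, limma adjusted p = 0.445). It rests on LXRα-Tg sham replicate 1, since it was 0.09 without that array. Col3a1, the chain of type III collagen, was likewise highest on LXRα-Tg sham replicate 1. It was at 7.51, 5.84 and 5.94 on LXRα-Tg sham arrays, against 5.81, 5.85 and 4.80 on Wt sham arrays. On TAC arrays it was at 5.77, 5.50 and 5.16 in LXRα-Tg and at 4.92, 5.94, 5.26 and 5.80 in Wt. The sham difference was 0.94 (SE 0.43, limma adjusted p = 0.298), and 0.40 without that array. The second probe of Col3a1 was at 5.59, 5.54 and 4.89 on LXRα-Tg sham arrays and at 5.28, 5.11 and 4.66 on Wt sham arrays, and on it replicate 1 did not stand apart.

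Among basement membrane collagens, 1 of 7 passed the test (Col15a1), and the median difference was 0.73. Col4a1 and Col4a2 encode the chains of the type IV network found in most basement membranes. Col4a1 was at 12.11, 11.93 and 12.22 on LXRα-Tg sham arrays, against 11.56, 11.52 and 11.00 on Wt sham arrays. Col4a2 was at 11.73, 11.80 and 11.86 on LXRα-Tg sham arrays, against 11.43, 11.28 and 10.90 on Wt sham arrays. On Wt sham replicate 3 both were lowest, and the sham groups of both genes did not overlap. The differences were 0.73 (SE 0.19, limma adjusted p = 0.0789) for Col4a1 and 0.60 (SE 0.20, limma adjusted p = 0.150) for Col4a2. On TAC arrays Col4a1 was at 11.61, 12.09 and 11.88 in LXRα-Tg and at 11.49, 11.90, 11.55 and 11.89 in Wt. Col4a2 was at 11.16, 11.66 and 11.42 in LXRα-Tg TAC and at 11.17, 11.52, 11.09 and 11.73 in Wt TAC. Col18a1, whose C-terminal fragment is endostatin, differed least of the 10. It was at 8.19, 8.51 and 8.47 on LXRα-Tg sham arrays, against 7.59, 8.23 and 8.45 on Wt sham arrays, which overlap, and the difference was 0.30 (SE 0.25, 95% interval -0.24 to 0.84). On TAC arrays Col18a1 was at 8.02, 8.02 and 8.38 in LXRα-Tg and at 7.89, 8.19, 7.87 and 8.71 in Wt.

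For the remaining tested genes, the sham differences were 0.53 (SE 0.29) for Col4a5 and 0.75 (SE 0.26) for Col4a3, and neither passed. These chains partner Col4a4 in specialised basement membranes such as that of the glomerulus. Col4a3 was detected on 2 of 3 LXRα-Tg sham arrays and 0 of 3 Wt sham arrays, so no least fold is given. Col14a1, a FACIT chain, was at 5.45, 5.63 and 5.36 on LXRα-Tg sham arrays, where 3 detected it, against 5.06, 4.76 and 5.43 on Wt sham arrays, where 1 did. On TAC arrays it was at 4.59, 4.91 and 5.76 in LXRα-Tg, where 1 detected it, and at 4.93, 4.79, 4.85 and 4.81 in Wt, where 0 did. Its sham difference was 0.40 (SE 0.25, limma adjusted p = 0.476). Col25a1, a transmembrane collagen, had the only difference below 0 (-0.13, SE 0.28) and was detected on 0 of 3 LXRα-Tg sham arrays and 1 of 3 Wt sham arrays.

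**Figure D2:**
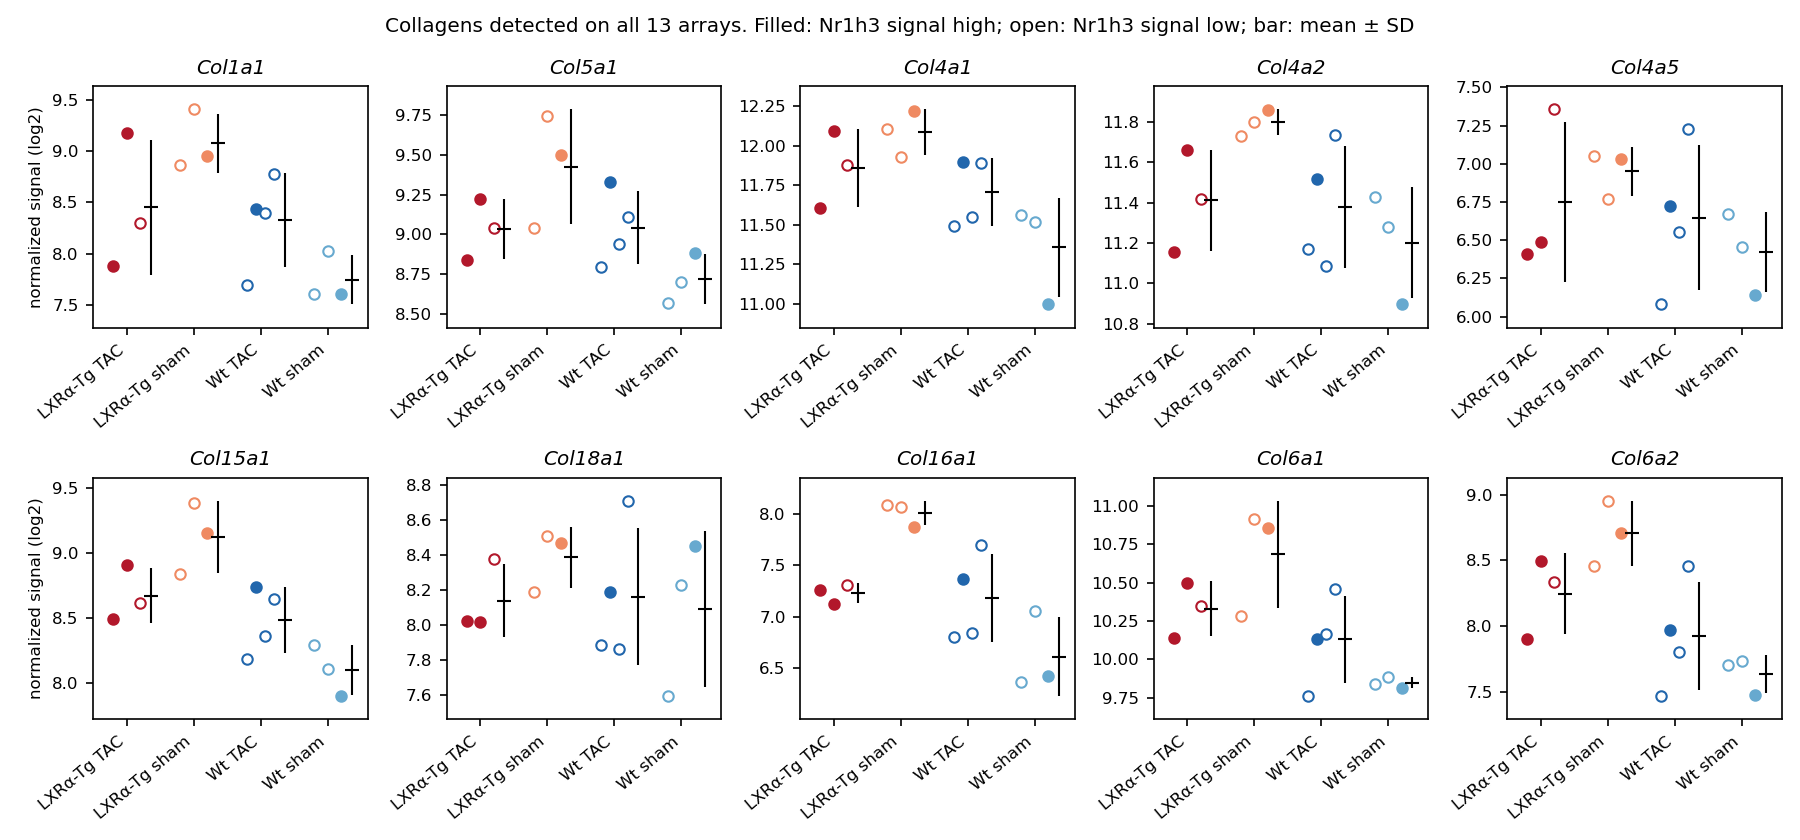
Normalized signal (log2, vertical axis) of the 10 collagen genes detected on all arrays, 1 point per array by labelled group, with the mean and SD. Filled points have a high and open points a low Nr1h3 signal, and on 9 of the 10 genes the LXRα-Tg sham points all lie above the Wt sham points.

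The calls between the sham groups rested on few arrays. Without the 5 arrays whose Nr1h3 went against the label, 0 of the 4 were called, with differences of 1.16 for Col16a1, 0.95 for Col15a1, 0.99 for Col6a2 and 0.99 for Col9a2, and that comparison then set 1 LXRα-Tg sham array, assumed to vary like the others, against 2 Wt sham arrays. Calls also fell to 0 without Wt sham replicate 1, LXRα-Tg sham replicate 2 or LXRα-Tg sham replicate 3, to 1 without Wt sham replicate 2 and to 2 without Wt sham replicate 3, and numbered 7 without Wt TAC replicate 1. Within slide 1 the differences were 1.37 for Col16a1, 0.64 for Col15a1, 0.74 for Col6a2 and 0.74 for Col9a2, and within slide 2 they were 1.55, 1.36, 1.36 and 0.94. None was called within a slide. With slide as a block all 4 were called, at 1.41, 0.99, 0.98 and 0.87, and Col6a1 was called as well (0.74, adjusted p = 0.0467).

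Some marker genes of cell types were also called between the sham groups. Over all genes tested, 1.30% were called higher, 0.281% were called lower and 48.8% had a difference above 0. Of 11 fibroblast markers tested, 4 were called higher, namely Lum, Mfap5, Pi16 and Mmp2. Pdgfra (0.42, SE 0.17), Tcf21 (0.22, SE 0.17), Thy1 (0.04, SE 0.24), Dcn, Dpt, Gsn and Dpep1 were not called. All 11 had a difference above 0 (median 0.33). Their summed normalized signal was 17634 to 20070 on LXRα-Tg sham arrays, against 12460 to 13276 on Wt sham arrays. Of 8 macrophage markers, 1 was called higher (median 0.60), with sums of 4765 to 6893 on LXRα-Tg sham arrays, against 3113 to 4543 on Wt sham arrays. Of 7 atrial cardiomyocyte markers, 1 was called higher and 2 had a difference below 0 (median 1.81), with sums of 27661 to 32008 on LXRα-Tg sham arrays against 8058 to 11650 on Wt sham arrays. Of 7 endothelial markers, 0 were called (median 0.24), and of 10 smooth muscle and pericyte markers 1 was called higher (median 0.08). Of the 3 activated fibroblast markers tested, Comp and Meox1 were called higher and Acta2, a marker of myofibroblasts and smooth muscle, was not (-0.17, SE 0.34). Their summed signal, in which bright genes weigh most, was 5761 to 7766 on LXRα-Tg sham arrays, against 4199 to 9548 on Wt sham arrays, which overlap. With each gene taken relative to its mean over all arrays, their log2 average did not overlap. It was 0.77 to 0.91 on LXRα-Tg sham arrays and -1.19 to -0.30 on Wt sham arrays. Of 9 cardiomyocyte markers 0 were called (median -0.18), of 8 liver and kidney genes 0 (median -1.23), of 3 epicardial 0 (median 0.20) and of 1 adipocyte marker 0. Ddr2, a collagen receptor listed as a fibroblast marker, and Postn, Cthrc1, Cilp and Thbs4 of the activated fibroblast list were not detected on any array. Kdr and Fabp4 of the endothelial list were not detected either. This bounds only what these probes could see and does not show that the genes were silent. The part of these cells in the collagen differences was not tested. With the mean of the atrial markers as a covariate, 0 collagens were called, and the differences were 0.98 for Col16a1, 0.995 for Col15a1, 0.78 for Col6a2 and 0.68 for Col9a2. That mean, relative to all arrays, was 0.26 to 0.80 on LXRα-Tg sham arrays and -1.99 to 0.08 on Wt sham arrays. Since the covariate went with the labels, the loss of the calls cannot show what part atrial tissue had, which was not tested.

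Lists of genes that act on or bind collagens were read in the same comparison. As given above, 1.30% of all genes were called higher in it, 0.281% were called lower and 48.8% had a difference above 0. Of 22 tested genes of collagen processing, 3 were called higher and 0 lower (median 0.28). These were Loxl1, an enzyme that prepares collagen and elastin for cross-linking (1.21, SE 0.24, limma adjusted p = 0.0294), Pcolce, which enhances cleavage of the procollagen C-terminus (1.18, SE 0.23, limma adjusted p = 0.0294), and P3h3, a prolyl 3-hydroxylase (0.86, SE 0.19, limma adjusted p = 0.0455). Of 16 collagen-binding matrix genes, 6 were called higher and 0 lower (median 0.47). The largest differences were in Comp (2.48, SE 0.33), Fmod (1.64, SE 0.37) and Bgn (1.44, SE 0.25), which code for proteins that bind fibrils. Of 5 collagen receptors tested, 0 were called, and 5 had a difference above 0 (median 0.41). All 3 lists share tissue and arrays with the collagens, and the matrix list shares Dcn, Lum and Dpt with the fibroblast markers and Comp with those of activated fibroblasts.

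Next, arrays labelled Wt TAC were set against arrays labelled Wt sham. No collagen was called (0 of 17, by limma and by an unpaired t-test adjusted over all genes), and by limma 0% of all genes were. Unadjusted p-values under 0.05 were found for 2 of 17, Col16a1 and Col4a4, both higher, against 4.75% of all genes higher and 2.13% lower. The 10 genes detected on all arrays had differences of 0.07 to 0.58 (median 0.31), all above 0, as were 53.1% of all genes. The median was 0.14 within slide 1 and 0.63 within slide 2. Col1a1 differed by 0.58 (SE 0.30, 95% interval -0.07 to 1.23) and Col16a1 by 0.56 (SE 0.22). Only Col4a4, 1 of 17, against 4.41% of all genes, had every Wt TAC array above every Wt sham array, with 5.10, 5.32, 5.40 and 5.80 against 4.69, 5.08 and 4.61. In 0 of 17 was every Wt TAC array below, against 2.87% of all genes. Of the Wt sham values of Col4a4, 0 were detected, and the difference was at least 1.16-fold. Col3a1 differed by -0.01 (SE 0.40). Wt TAC replicate 1 was low for many collagens, with an average of -0.44 over the 10 genes relative to the mean of all arrays, against 0.30 on Wt TAC replicate 4.

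On arrays labelled LXRα-Tg, TAC against sham gave differences below 0 for the 10 genes. None of 17 collagens was called, and 0% of all genes were. Col15a1 and Col16a1, 2 of the 10, were lower at unadjusted limma p-values under 0.05, and 0 of the 10 were higher. Of all genes, 3.94% were lower and 3.10% higher. Col3a1 and Col9a2 were lower as well. Col9a2 entered the test through the LXRα-Tg sham arrays, where it was high, so its p is no support for a difference. The 10 genes detected on all arrays had differences of -0.78 to -0.20 (median -0.39), so that 0 were above 0, against 51.8% of all genes. Col16a1 and Col4a2, 2 of the 10, had every LXRα-Tg TAC array below every LXRα-Tg sham array, as did 6.33% of all genes. In 0 of the 10 was every array above, against 5.75% of all genes. Col3a1 and Col9a2 also had every array below, but only 1 of 3 LXRα-Tg TAC arrays detected Col9a2 and 2 of 3 detected Col3a1. The difference of Col3a1 (-0.95, SE 0.43) leaned on LXRα-Tg sham replicate 1, at 7.51. Its lowest LXRα-Tg sham value was 5.84, close to its highest LXRα-Tg TAC value of 5.77. Col16a1 differed by -0.78 (SE 0.24, limma adjusted p = 0.555), Col1a1 by -0.62 (SE 0.32) and Col6a2 by -0.46 (SE 0.23). Col9a2 differed by -0.57 (SE 0.16), which is given as a description only.

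Under TAC, the genotype labels were set against each other as LXRα-Tg TAC against Wt TAC. Again 0 of 17 collagens were called, as were 0% of all genes, and 0 of the 10 genes detected on all arrays had an unadjusted p under 0.05, against 1.86% of all genes higher and 2.86% lower. In 0 of the 10 was every LXRα-Tg TAC array above every Wt TAC array, against 2.19% of all genes, and in 0 was every array below, against 2.96%. Col9a2 was detected on 1 of 3 LXRα-Tg TAC arrays and 0 of 4 Wt TAC arrays, so no fold is given. The 10 genes had differences of -0.02 to 0.32 (median 0.12), of which 8 were above 0, against 48.9% of all genes. The direction of the median rested on single arrays, since it was -0.05 without Wt TAC replicate 1 and 0.28 without LXRα-Tg TAC replicate 1. For Col1a1 the difference was 0.13 with a 95% interval of -0.52 to 0.77, and for Col16a1 it was 0.05 with an interval of -0.43 to 0.53, so differences of that width cannot be told from 0 with these arrays.

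The difference of the TAC effects is the change from sham to TAC on arrays labelled LXRα-Tg minus that on arrays labelled Wt. It was below 0 for all 10 collagens detected on all arrays, where 48.8% of all genes were above 0. Of the 17 tested, 0 passed the test, against 0% of all genes. Unadjusted p-values under 0.05 were found for 7 of the 10, each of them lower, against 6.05% of all genes lower and 4.20% higher. The median of the 10 was -0.68. Of these Col16a1 differed most, by -1.34 (SE 0.32, limma adjusted p = 0.185), then Col1a1 (-1.20, SE 0.44, adjusted p = 0.360) and Col15a1 (-0.84, SE 0.26, adjusted p = 0.311). This difference uses the same sham arrays as the comparison of LXRα-Tg sham with Wt sham and is not independent of it. Averaged over the 10 genes and relative to the mean of all arrays, the levels were 0.29 to 0.58 on LXRα-Tg sham arrays, -0.51 to -0.27 on Wt sham arrays, -0.20 to 0.20 on LXRα-Tg TAC arrays and -0.44 to 0.30 on Wt TAC arrays.

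**Figure D3:**
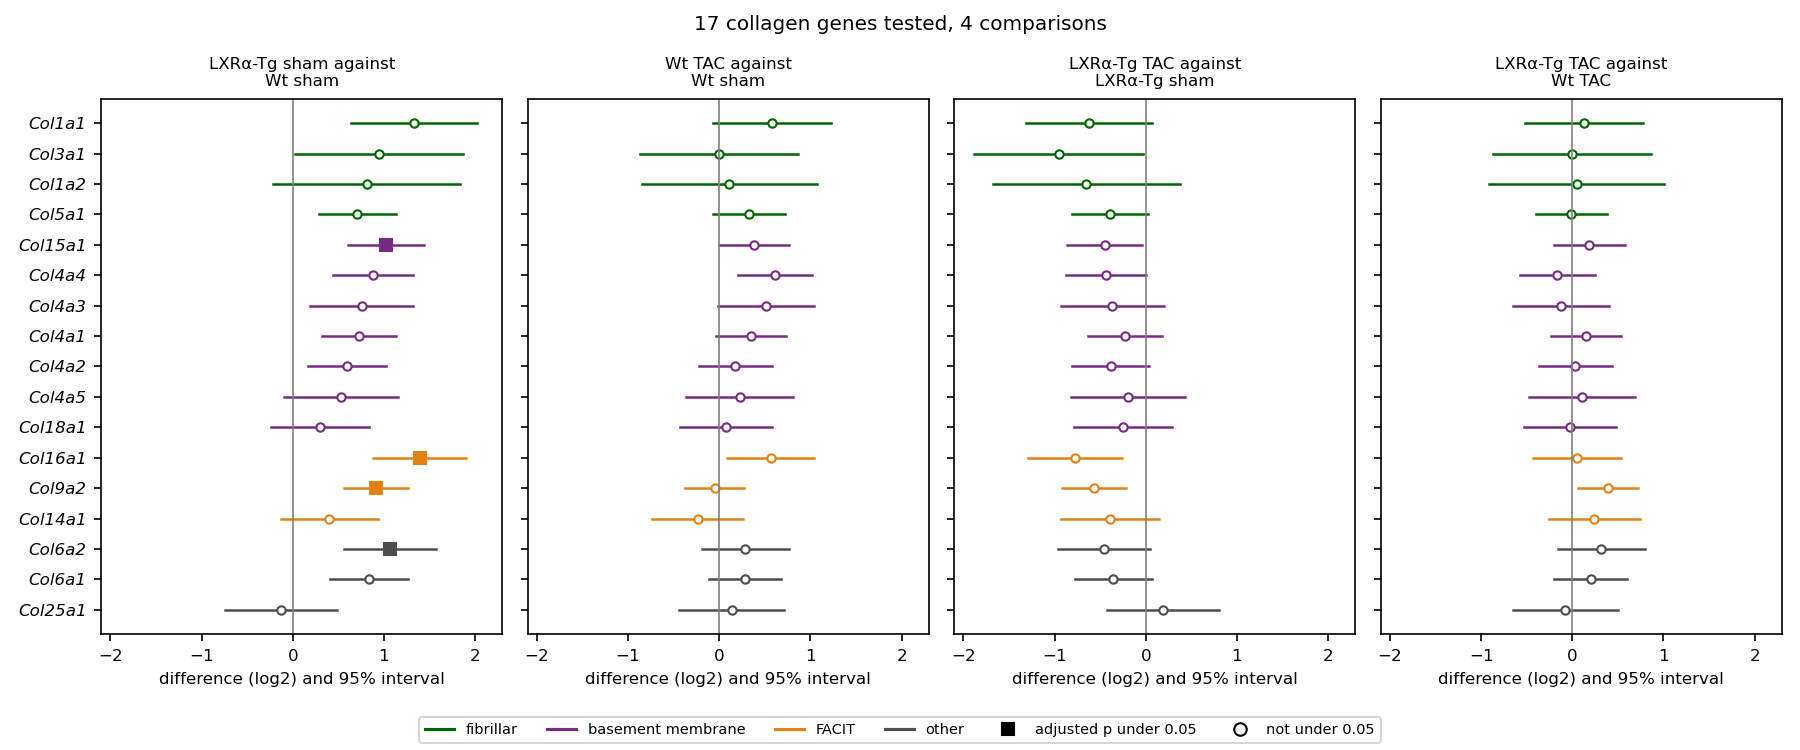
Difference between groups (log2, horizontal axis) with its 95% interval for the 17 tested collagens (vertical axis), in 4 comparisons. Squares passed the test and circles did not. The 4 squares are all in LXRα-Tg sham against Wt sham.

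Chains that are built into 1 molecule were compared across all 13 arrays, for the pairs in which both genes passed the detection filter. Of the 6 pairs listed, Col5a1 with Col5a2, Col6a1 with Col6a3 and Col8a1 with Col8a2 could not be run, and Col4a3, Col4a4 and Col4a5 were not in the list. Col4a1 and Col4a2 went together (Pearson r = 0.911, Spearman rho = 0.868, permutation p = 5.0e-05 and 0.00027, adjusted over 3 pairs 7.5e-05 and 0.000405). Col6a1 and Col6a2 also went together (r = 0.961, rho = 0.973, permutation p = 1e-05 for both, the smallest that 100000 resamples can give, adjusted 3.0e-05). Col1a1 and Col1a2 did not (r = 0.118, rho = 0.0055, permutation p = 0.748 and 0.993). Around the group means r was 0.910 for Col4a1 with Col4a2 and 0.886 for Col6a1 with Col6a2. Within slide 1 it was 0.889 and 0.930, and within slide 2 it was 0.915 and 0.970. Without the 2 arrays farthest from the median of the first gene it was 0.864 and 0.947. For Col1a1 with Col1a2, r was 0.789 within slide 1 (6 arrays, exact permutation p = 0.0542) and -0.05 within slide 2, and 8 of the 13 Col1a2 values were not above the detection threshold. The points share slides and whatever mix of cells each tissue piece held. Pairs of chains from different molecules were not run as a baseline, and the part of gene location was not tested.

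**Figure D4:**
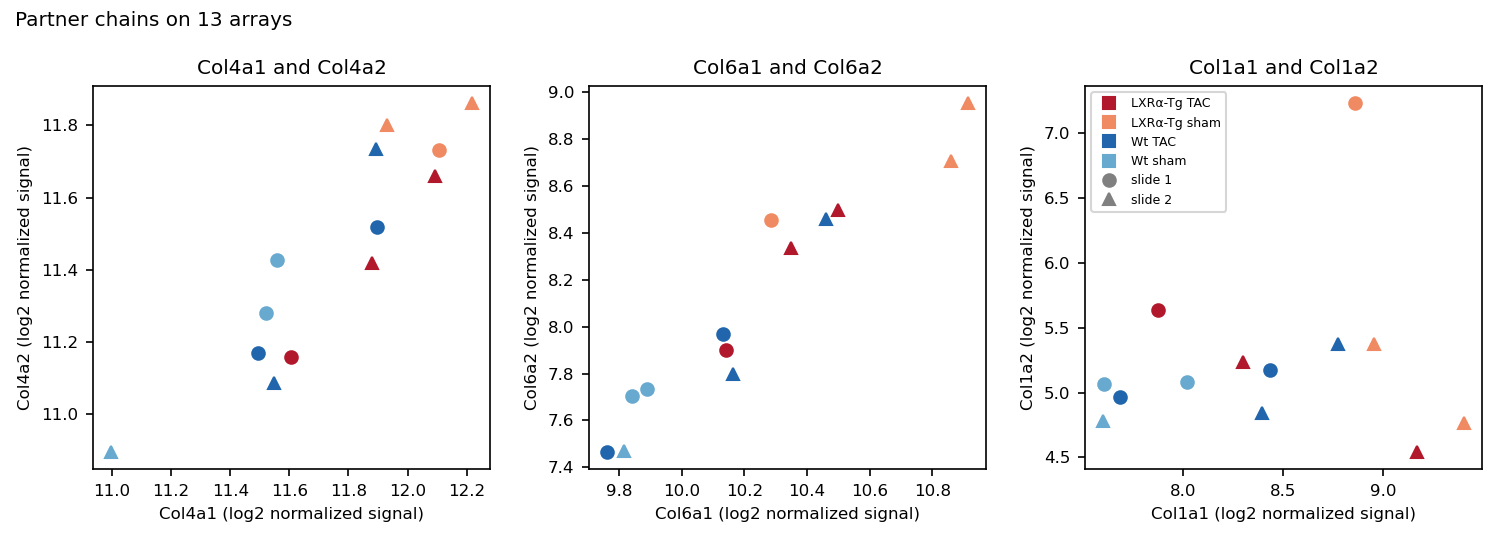
Normalized log2 signal of the first chain (horizontal axis) against the partner chain (vertical axis) on 13 arrays, coloured by labelled group, circles for slide 1 and triangles for slide 2. Col4a1 with Col4a2 (r = 0.911) and Col6a1 with Col6a2 (r = 0.961) follow a line, while 1 LXRα-Tg sham array stands far above the others for Col1a2.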

How the data were processed

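The authors deposited 1 table with, per probe and array, a background-subtracted linear signal intensity that was not normalized (made in GenomeStudio 2011.1, per the submitters' processing notes) and a detection p-value against the negative controls. A second deposited table holds their processed intensity values and served as an alternative. The neqc function (normexp, offset 16, then quantiles; limma 3.58.1, R 4.3.3) gave the log2 values, kept for probes detected at p under 0.01 on at least 3 arrays. Each of 7837 genes was read by its brightest probe. A model of group means over all 13 arrays (9 residual degrees of freedom) gave 5 comparisons, with p-values adjusted by Benjamini-Hochberg and called under 0.05. The fit was tested on simulated data. Correlations used 100000 permutations in Python 3.11.15 (numpy 2.4.6, scipy 1.17.1), and figures matplotlib 3.10.9. Named genes were the collagens of the main cardiac types, every collagen called, and up to 3 called genes of each pathway list. The members and lists were chosen with earlier results of these data known. The alternatives concerned background correction, scaling, filter, probes, slide, arrays left out, covariates and tests. The number of arrays limits the precision. All 4 Wt TAC arrays were used, although the series text gives 3 per group.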

Additional observations from a re-analysis of the deposited data

How the results depend on the processing

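No paired analysis was possible because the labels carry no replicate numbers. Between the sham groups, the 4 collagens called became 2 without further background correction, with the authors' processed values and with only the groups compared. They also became 2 without Wt sham replicate 3, the array with the most liver and kidney probes detected. They became 0 without the 2 arrays lacking Eif2s3y, with the atrial covariate, and by an unpaired t-test or ANOVA with Bonferroni, and 7 with array weights. Both of these tests were then adjusted over all genes, and the paper's methods name a paired t-test. Each slide alone, and the set without the 5 arrays whose Nr1h3 went against the label, left at least 1 group with 1 array. Leaving out each array in turn gave 0 to 7. Median scaling, which put the median of all genes no more than 0.08 from 0, the filter on dim probes and the block on slide kept the count within 1.5 times of 4. The median of the 10 collagens detected on all arrays stayed above 0, from 0.53 within slide 1 to 1.07 within slide 2. In the other 4 comparisons 0 collagens were called under every alternative run. The difference turned sign for Col18a1 with the atrial covariate (-0.23), and for Col25a1 without further background correction (0.28), with the authors' values (0.33), with slide as a block (0.019) and on leaving out arrays (-0.26 to 0.12, with 0.0022 without LXRα-Tg sham replicate 3). The correlation of Col1a1 with Col1a2 was -0.0047 with the authors' values, -0.40 around group means, -0.052 within slide 2 and -0.20 to 0.27 on leaving out each array, an alternative added after seeing the data. The cause was not tested. With 3 or 4 arrays per group, differences of the size of their 95% intervals cannot be resolved, and dim probes such as Col9a2 and Col25a1 were near the background on most arrays.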
